A study of Oreochromis niloticus with 9 samples.

Results

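The transcripts of cytosolic ribosomal proteins were examined in the liver of GIFT, a genetically improved farmed strain of Nile tilapia (Oreochromis niloticus). Members were chosen by gene symbol alone: every locus whose symbol was rpl or rps followed by a digit, or rplp0, rplp1, rplp2, rpsa or faua, without the rps6k kinases. This gave 76 of the 37283 loci in the deposited table. All fish carried the same GIFT background and ate the experimental diets for 8 weeks. The diets shared their ingredients apart from cellulose, which apple peel powder (APP, written APE in the labels) replaced by weight. APP was at 0% (group C), 0.2% (APP_A, the amount the study called appropriate) or 0.8% (APP_H, the high amount). Each group had 3 libraries of poly(A) RNA, each from liver pooled within 1 rearing tank, so the spread between libraries was a spread between tanks and not between single fish. Fish were juvenile at the start, and the labels gave no sex. Levels were FPKM, the fragments mapped to a locus, scaled to transcript length in kilobases and to the mapped fragments of the library.

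Ribosomal proteins of the large (60S) and small (40S) subunits are built into cytosolic ribosomes in nearly equal amounts, and most are encoded by single genes used in every cell. Their mRNAs begin with a terminal oligopyrimidine (TOP) tract, through which the kinase mTOR and the RNA-binding protein LARP1 govern their translation and stability together. The liver, which makes most plasma proteins, holds many ribosomes, and the abundance of ribosomal protein mRNA is known to follow growth and feeding.

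By symbol, 41 of the 76 loci encoded 60S proteins, 28 encoded 40S proteins and 3 encoded the stalk proteins rplp0, rplp1 and rplp2, which recruit elongation factors to the 60S subunit. Another 3 loci were like forms of ribosomal proteins, namely rpl22l1, rpl7l1 and rpl3l. The last, rps19bp1, met the symbol rule but encodes a binding partner of rps19, not a ribosomal protein, so the family name does not apply to it. The 76 loci carried 72 distinct symbols, since rpl5, rpl19, rpl22 and rps19 were each placed on 2 loci, called copy 1 (the more abundant) and copy 2 here. Of 79 ribosomal protein names known in vertebrates, 68 were matched. The other 11 were not analysed here.

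Members were spread over the assembly. They lay on 64 scaffolds, of which 53 held 1 member and 11 held 2 or more. The closest pairs were rpl28 and rpl37 on scaffold GL831236.1, 26622 bases apart, and rpl3 and rpl27 on scaffold GL831151.1, 33142 bases apart. The locus spans ran between 1153 bases (rps29) and 69366 bases (rps7) with a median of 4139, and 64 of the 76 were under 10000 bases. Positions are those of the table, whose genome build was not given in the sources used here.

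Libraries differed before any comparison of diets. The FPKM of a library summed to between 1226503 (APP_H3) and 2631532 (C1), and between 23004 (APP_H1) and 26504 (APP_H2) loci were above 0. APP_H3 stood apart in its cell type markers. Of 34 tested hepatocyte markers 31 were lowest there, and their summed FPKM was 7950 in APP_H3 against 95461 to 225110 in the other 8 libraries, although no marker of this list was at 0 in APP_H3. Erythroid markers summed to 3130 FPKM in APP_H3 and to between 386 and 1548 in the others, and 9 of the 11 were highest there. Of this list tfr1a was at 0 in APP_H3, and also in C2, APP_A1, APP_A2, APP_A3 and APP_H1. Lymphoid markers summed to 195 FPKM in APP_H3, against 18.4 to 88.2 elsewhere, and 5 of the 11 tested were highest there and 0 lowest. Myeloid markers summed to 657 FPKM in APP_H3, against 9415 to 29449 elsewhere, but of the 16 tested 6 were highest and 7 lowest there, and their mean log2 level was 4.25 in APP_H3 against 4.89 to 5.42 elsewhere. Markers of exocrine pancreas, which is scattered through the tilapia liver, summed to 1113 FPKM in APP_H3 and 4645 in APP_A2, against 20557 to 59088 in the remaining 7 libraries. In the other libraries the hepatocyte list matched the labelled tissue, with apoa1a at 0 in 6 libraries and c8a in 2. In pooled liver, fewer cells of a type and less RNA per cell cannot be told apart. The part of APP_H3 in the results that use it was not tested beyond the values given without it.

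Ribosomal protein mRNAs were among the most abundant in every library. All 684 member values were above 0, so no library was listed at 0 for any member. The median over members of the mean FPKM was 1509, 53 loci had a mean between 500 and 3000, and 68 of 76 ranked within the first 1000 loci in every library. Levels were uneven, since the 10 most abundant loci took 47.0% of the FPKM of the family. rpl27a alone, a 60S protein gene on scaffold GL831310.1 (424172 to 451956), took 16.4%. It had 40859, 29840 and 25173 FPKM in C, 23274, 29044 and 23211 in APP_A, and 39352, 20446 and 12634 in APP_H, and it ranked between 5 and 11 among all loci. Its locus covered 27785 bases with 4 transcription start groups, and whether it also took reads of a neighbour was not tested.

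**Figure D1:**
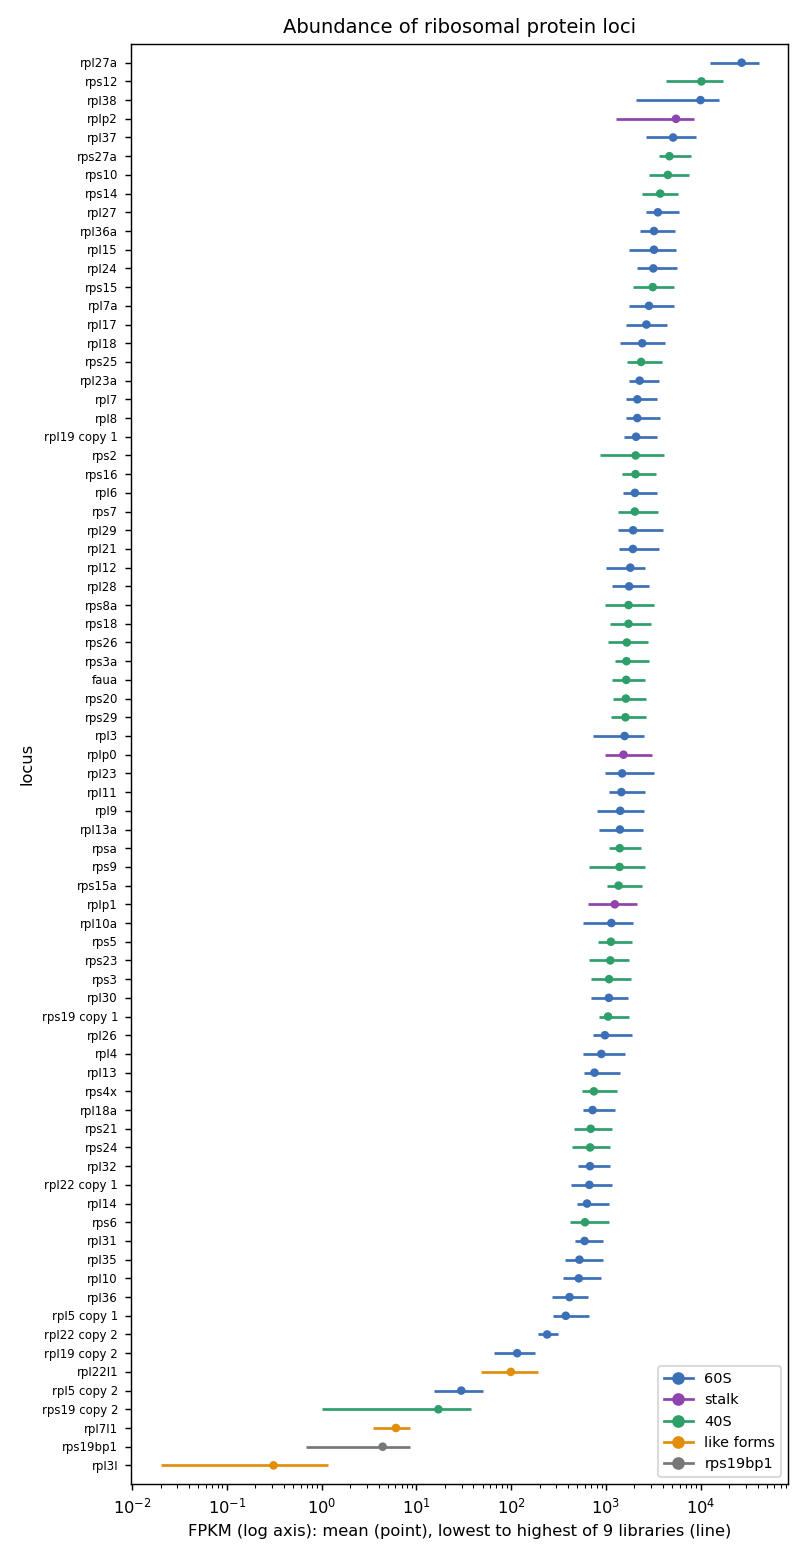
Abundance of the 76 loci. Points give the mean FPKM over the 9 libraries on a log axis, lines run between the lowest and the highest library, and colours mark the class. A total of 70 loci have a mean of at least 100 FPKM, and rpl27a stands highest.

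Below rpl27a stood rps12, a protein of the beak of the 40S subunit, on scaffold GL831143.1 (114007 to 115300). It had 14665, 12309 and 8502 FPKM in C, 5787, 8873 and 10341 in APP_A, and 17417, 9531 and 4336 in APP_H. The groups overlapped, with the highest and the lowest library both in APP_H. rpl38, a small 60S protein that in mouse is needed for translation of Hox mRNAs, lay on scaffold GL831265.1 (1571316 to 1574627) and had 14221, 15714 and 8990 FPKM in C, 9300, 13491 and 7222 in APP_A, and 15092, 2085 and 3682 in APP_H. APP_H1 was thus as high as the C libraries for rpl38, and APP_H2 and APP_H3 were below all other libraries. The stalk gene rplp2 followed, and then rpl37, which encodes a zinc-binding 60S protein, and rps27a, whose product is a fusion of ubiquitin to a 40S protein. rpl37 ranged between 2658 and 8926 FPKM and rps27a between 3618 and 7869, each lowest in APP_H3 and highest in APP_H1.

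Only 6 loci had a mean under 100 FPKM, among them the 3 like forms and rps19bp1. rpl22l1, a paralog of the RNA-binding 60S protein rpl22, had 118, 114 and 74.7 FPKM in C, 76.1, 96.5 and 72.2 in APP_A, and 190, 104 and 47.8 in APP_H. rpl7l1 stayed between 3.52 and 8.63 FPKM. rpl3l, known in mammals as the form of rpl3 in striated muscle, had at most 1.18 FPKM (APP_H3) and was at 0.02 in APP_H1. It was the single member that did not reach 1 FPKM in 3 libraries, so 75 of 76 loci were tested.

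The symbols on 2 loci each had a major and a minor copy. The ratio of the FPKM of copy 2 to that of copy 1 lay between 0.0408 and 0.0722 for rpl19, a 60S protein, and between 0.0010 and 0.0376 for rps19. rps19, a 40S protein whose loss causes Diamond-Blackfan anemia in humans, had 875 to 1282 FPKM in C, 843 to 1018 in APP_A and 909 to 1753 in APP_H on copy 1. Its copy 2 ranged between 1.02 (APP_A2) and 37.7 FPKM (APP_A3), the widest fold range of any member tested, and each diet had a library under 10 FPKM and a library above 25 FPKM. Reads shared by near-identical copies can be split between loci by the counting, so the level of each copy is uncertain.

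On the FPKM scale the members shifted together between libraries, and the libraries of 1 diet did not shift alike. For the 70 loci with a mean of at least 100 FPKM, each value was set against the median of that locus over the 9 libraries, and the median of these log2 ratios over loci is called the common shift of a library. It was 0.11, 0.26 and -0.26 in C, -0.18, 0.23 and 0.00 in APP_A, and 0.87, -0.20 and -0.46 in APP_H. On this scale the highest and the lowest library of the series were thus 2 tanks of the same diet. The lowest, APP_H3, also had the lowest summed FPKM, so its place depends on the scaling. With each library scaled to the same summed FPKM, 69 of 75 members had a positive log2 fold change between APP_H and C. Between APP_H and APP_A 70 did, in the comparisons given below. The median member level was 2594 FPKM in APP_H1, 1260 in APP_H2 and 994 in APP_H3. In C it was 1465, 1708 and 1125 FPKM, and in APP_A 1196, 1641 and 1419.

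**Figure D2:**
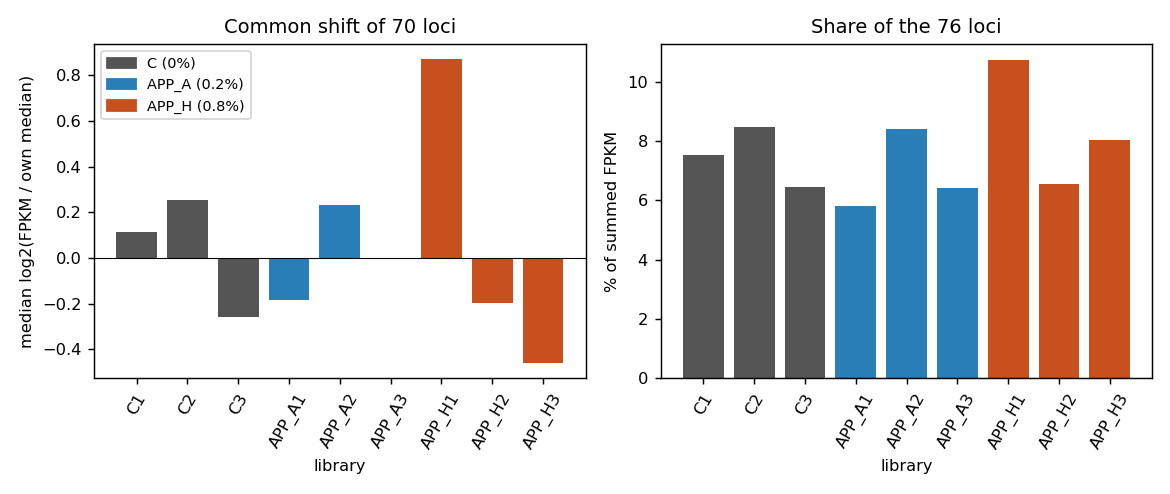
The family as a whole in each of the 9 libraries, with libraries of 1 diet in 1 colour. Left, the common shift of 70 loci as a median log2 ratio to the median library of each locus, which runs between -0.46 (APP_H3) and 0.87 (APP_H1). Right, the summed FPKM of the 76 loci as a percent of the summed FPKM of the library, highest in APP_H1 (10.7%).

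Single members followed the common shift closely. APP_H1 was the highest library for 70 of the 76 loci (92.1%), against 13.7% of all tested genes and 27.1% of the 1741 tested genes with a mean of at least 100 FPKM. APP_H3 was the lowest for 52 loci (68.4%), against 25.7% of all tested genes and 42.3% of those 1741. Among the 70 abundant loci, C3 was the lowest C library for 69, APP_A2 the highest APP_A library for 69 and APP_A1 the lowest for 60. APP_H1 was above all 3 C libraries for 67 of the 70, APP_H3 was below all 3 for 54, and APP_H2 was below all 3 for 30 and within their range for 40. These counts among the 70 loci were not made over all tested genes, so they describe the members alone. The median SD over the 9 libraries, on log2(FPKM + 1), was 0.70 for all tested genes and 1.88 for the 1741 abundant ones. For the 70 loci it was 0.41 on the log2 scale, and 0.12 after the common shift was taken out. The common shift came from these same 70 loci, so part of this drop was built in. Members within a library share its depth scaling, so their likeness there is a description.

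**Figure D3:**
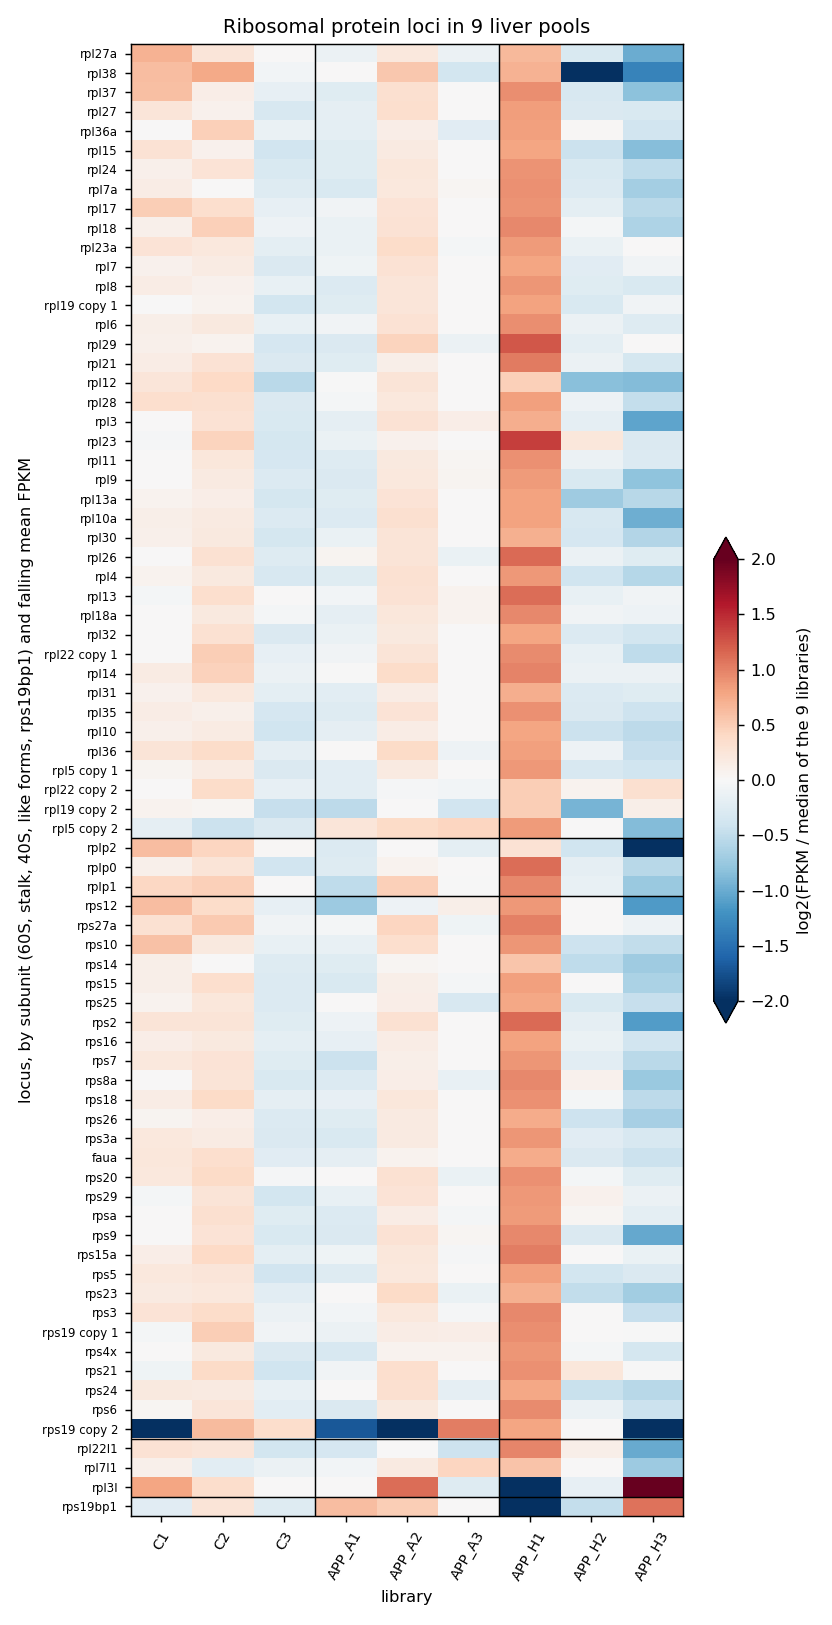
Each row is 1 of the 76 loci and each column 1 of the 9 libraries. Colour gives log2 of the FPKM over the median of the locus (red high, blue low, limits at 2). The APP_H1 column is red for nearly all 60S, stalk and 40S loci and the APP_H3 column mostly blue. rpl3l and rps19bp1 go the other way in both columns, and rpl22 copy 2 (0.31) and rpl19 copy 2 (0.12) are above their median in APP_H3. rpl38, rplp2 and rps19 copy 2 keep these signs but vary widely, with an SD over libraries of 1.01, 0.80 and 2.05.

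The subunits moved alike in APP_H1 and APP_H3, as in most other libraries, and least so in APP_H2. Among loci with a mean of at least 100 FPKM, 40 encoded 60S proteins and 27 encoded 40S proteins. Their median log2 ratio in APP_H1 was 0.85 for 60S and 0.88 for 40S proteins. In APP_H3 it was -0.41 for 60S and -0.46 for 40S proteins. In APP_H2 it was -0.25 for 60S and -0.11 for 40S proteins. Between APP_A and C the log2 fold change was positive for 19 of the 40 60S loci (median -0.0039). It was positive for 5 of the 27 40S loci (median -0.07). rps6, the 40S protein that S6 kinases phosphorylate downstream of mTOR, stayed close to the common shift, with its largest log2 difference, -0.0988, in APP_A1. It had 577, 664 and 487 FPKM in C, 463, 641 and 563 in APP_A, and 1083, 521 and 419 in APP_H. rpsa, a 40S protein also known as the laminin receptor, had 1298, 1615 and 1092 FPKM in C, 1078, 1441 and 1262 in APP_A, and 2353, 1338 and 1129 in APP_H. For each of them APP_H1 was the highest library of the 9, and APP_H3 lay below the median library. faua, whose product is the 40S protein rps30 fused to a ubiquitin-like peptide, ranged between 1155 FPKM (APP_H3) and 2608 FPKM (APP_H1). rpl11 and rpl5 form a complex with 5S rRNA that in mammals also binds the p53 ligase MDM2. rpl11 ranged between 1077 (C3) and 2585 FPKM (APP_H1) and copy 1 of rpl5 between 276 (APP_H3) and 663 FPKM (APP_H1).

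As a share of all FPKM, the family took 7.51%, 8.48% and 6.46% in C, 5.81%, 8.42% and 6.41% in APP_A, and 10.7%, 6.55% and 8.03% in APP_H. The groups overlapped. The mean share of APP_H was 0.96 percentage points above that of C, but 0.19 points below it without APP_H1. In APP_H3 the family was at its lowest level and yet held a share above that of 5 other libraries, since the summed FPKM of that library was also the lowest.

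The first comparison asked what the appropriate amount of APP did. Each member was compared on log2(FPKM + 1) with limma, a linear model fitted over all 20575 tested genes, and a gene was called DE at a log2 fold change of at least 1 in either direction and a Benjamini-Hochberg adjusted p under 0.05. Between APP_A and C, 0 of the 75 tested loci were DE, against 0.0972% of all tested genes (20 genes), and 0 had an unadjusted limma p under 0.05, against 3.4% of all (1.48% higher and 1.92% lower). The median log2 fold change of the members was -0.04, beside -0.05 over all genes, and 27 of 75 were positive, beside 44.9% of all. Members ranged between -0.99 (rps19 copy 2) and 0.62 (rpl5 copy 2), with a median SE of 0.49. The median was -0.18 without C3, with 3 positive, -0.14 without APP_A2, with 4 positive, 0.06 without C2, with 55 positive, and 0.06 without APP_A1, with 49 positive. Only 1 member was higher in all APP_A than in all C libraries and 1 lower, against 4.69% and 6.34% of all tested genes.

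The locus above all C libraries was copy 2 of rpl5, on scaffold GL831134.1 (11559108 to 11562697). It had 32.9, 36.3 and 37.4 FPKM in APP_A and 24.5, 20.8 and 22.9 in C, while copy 1 had 314, 412 and 362 in APP_A and 375, 408 and 296 in C. The log2 fold change of copy 2 was 0.62 (SE 0.45, limma adjusted p = 1.0), and the ratio of copy 2 to copy 1 was 0.105, 0.088 and 0.103 in APP_A against 0.0655, 0.0509 and 0.0772 in C. With only the APP_A and C libraries in the fit its unadjusted limma p was 0.0192, with an adjusted p of 0.745. In APP_H copy 2 had 50.4, 27.8 and 15.2 FPKM, a range that covered both other diets.

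The locus below all C libraries was rplp2, on scaffold GL831272.1 (707345 to 710021), whose protein pairs with rplp1 on rplp0 in the ribosomal stalk. It had 4658, 5610 and 4917 FPKM in APP_A and 8587, 7550 and 5691 in C, a log2 fold change of -0.51 (SE 0.64, limma adjusted p = 1.0). No member was near the threshold. Besides rplp2, the negative values with the lowest p were those of rps12 (log2 fold change -0.51), copy 2 of rps19 (-0.99), rpl27a (-0.32) and rplp1 (-0.31). On the positive side copy 2 of rpl5 was followed by rpl7l1 (0.23), rps19bp1 (0.36), the 40S protein rps21 (0.12) and copy 1 of rpl19 (0.09). None had an adjusted limma p under 1.0.

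The second comparison asked what the high amount did. Between APP_H and C, 0 of 75 loci were DE, against 0.122% of all tested genes (25 genes), and 0 had an unadjusted limma p under 0.05, against 7.58% (3.18% higher and 4.4% lower). The median log2 fold change of the members was 0.01, beside -0.03 over all genes, and 42 of 75 were positive, beside 48.3% of all. No member lay above or below all C libraries in all APP_H libraries, where 5.91% of all genes did in the upward and 7.02% in the downward direction. This median rested on single libraries: it was -0.36 without APP_H1, with 4 of 75 loci positive, 0.28 without APP_H3, with 69 positive, and -0.14 without C3, with 18 positive. Without APP_H2 it was 0.15. Scaling each library to the same summed FPKM gave a median of 0.36 with 69 positive, beside a median of 0.23 over all genes, and quantile normalization gave 0.36 with 70 positive, beside 0.05 over all genes.

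The largest negative values of this comparison did not pass the test. rpl38 had a mean of 6953 ± 7094 FPKM in APP_H and 12975 ± 3531 FPKM in C (SD, n = 3 each), with a log2 fold change of -1.37 (SE 0.74, limma adjusted p = 0.668). rplp2 had 6890, 4274 and 1278 FPKM in APP_H against the C values above, with a log2 fold change of -1.1 (SE 0.64, limma adjusted p = 0.682). These were the only 2 members with a change of at least 1 on the log2 scale. Next were rpl27a at -0.53, copy 2 of rps19 at -0.53 and rpl12, a 60S protein at the base of the stalk, at -0.44. On the positive side stood rps21 at 0.42, rpl23 at 0.41, a 60S protein at the interface of the subunits, rpl29 at 0.41, a basic 60S protein, and rps29 at 0.33. The lowest adjusted limma p among these was 0.740, for rpl27a. Without APP_H3 the log2 fold change was -1.17 for rpl38, -0.40 for rplp2, -0.14 for rpl27a and -0.21 for rpl12, and that of copy 2 of rps19 turned to 0.66. Without APP_H2 that of rpl38 was -0.76. Leaving out APP_H1 gave 0.15 for rps21, -0.06 for rpl23, -0.04 for rpl29 and 0.035 for rps29.

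Without APP_H1 the unadjusted limma p was under 0.05 for 3 members. They were rpl38 (log2 fold change -2.19, adjusted p = 0.163), rplp2 (-1.62, adjusted p = 0.231) and rpl27a (-0.96, adjusted p = 0.252). In that fit 18.4% of all tested genes had an unadjusted p under 0.05.

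The third comparison set the high against the appropriate amount. Between APP_H and APP_A, 0 of 75 loci were DE, against 0.136% of all tested genes (28 genes), and 0 had an unadjusted limma p under 0.05, against 10.9% (5.71% higher and 5.17% lower). The median log2 fold change was 0.07, beside 0.02 over all genes, and 50 of 75 were positive, beside 51.0% of all. It was -0.31 without APP_H1, with 2 positive, 0.32 without APP_H3, with 72 positive, and -0.02 without APP_A1. With the same summed FPKM in every library the median was 0.38 with 70 positive, beside 0.26 over all genes, and after quantile normalization it was 0.25 with 65 positive, beside -0.02 over all genes. Quantile normalization also turned the median of APP_A against C to 0.15, with 64 positive, beside 0.06 over all genes. Each pair of comparisons shared a group of libraries, so their values are not independent.

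Only 1 member was higher in all APP_H than in all APP_A libraries and 0 were lower, against 7.45% and 7.06% of all tested genes. This was copy 2 of rpl22, on scaffold GL831283.1 (1798589 to 1803160). It had 312, 233 and 277 FPKM in APP_H, 193, 218 and 215 in APP_A, and a log2 fold change of 0.38 (SE 0.38, limma adjusted p = 0.676). In C it had 223, 288 and 199 FPKM, which overlapped both other diets. Copy 1 had 1161, 545 and 424 FPKM in APP_H and 579, 721 and 608 in APP_A, so copy 2 held the narrower range. The ratio of copy 2 to copy 1 was 0.269, 0.428 and 0.652 in APP_H and 0.334, 0.303 and 0.355 in APP_A, so on it these groups overlapped. The other members with the lowest p of this comparison were rpl38 (-0.99), rps19bp1 (-0.65), rplp2 (-0.59), rpl12 (-0.49) and copy 2 of rpl5 (-0.34), and, with positive values, rpl23 (0.45), rpl29 (0.34), rps21 (0.30) and rpsa (0.29). Without APP_H3 the value of rpl38 was -0.79, and that of rplp2 turned to 0.10 and that of copy 2 of rpl5 to 0.08. Without APP_H2 that of rpl38 was -0.38. Leaving out APP_H1 gave -0.02 for rpl23, -0.11 for rpl29, 0.03 for rps21 and -0.03 for rpsa. rps19bp1 had 0.68, 2.89 and 8.59 FPKM in APP_H and 6.17, 5.65 and 4.03 in APP_A. Without APP_H3 its log2 fold change was -1.28, with an adjusted limma p of 0.381.

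**Figure D4:**
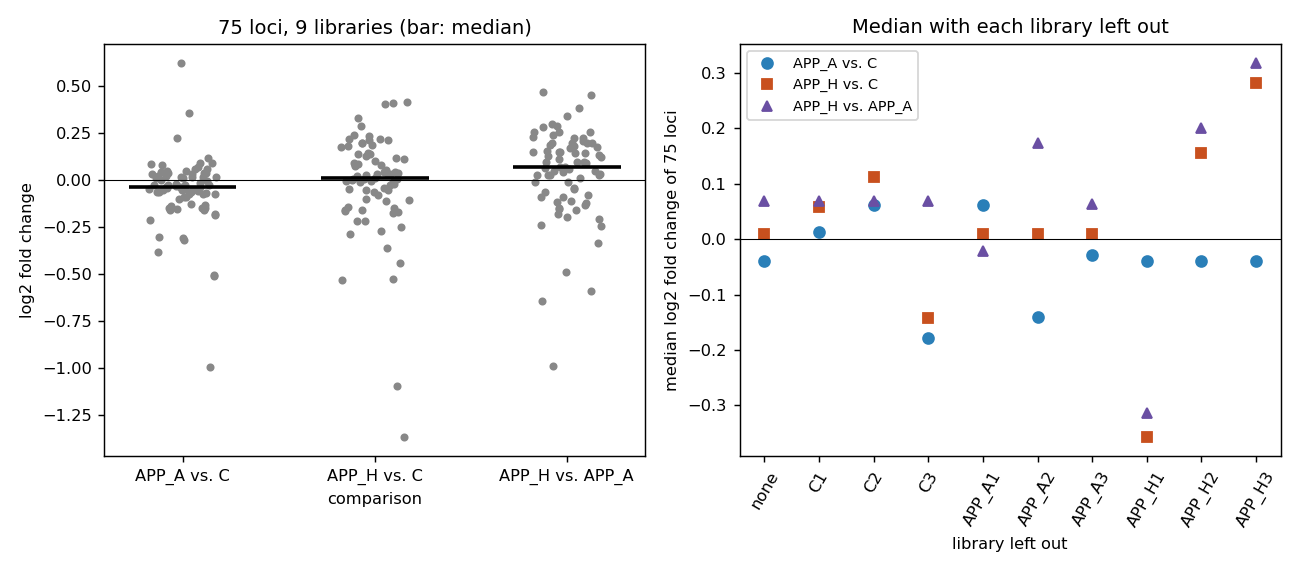
Left, log2 fold changes of the 75 tested loci in the 3 comparisons, a point per locus and a bar at the median. Right, the same median with each library left out in turn, which for APP_H vs. C runs between -0.36 (without APP_H1) and 0.28 (without APP_H3).

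Since the members moved together, their departures from the common shift of each library were also examined. Of the 70 abundant loci 57 stayed within 0.5 on the log2 scale in every library, and 13 departed by more in at least 1 library. APP_H3 held 10 such departures, APP_H2 4, C1 3 and APP_H1 2, while C2 and APP_A1 held 1 each and C3, APP_A2 and APP_A3 none. rpl38 departed most, by -1.96 in APP_H2 and -0.88 in APP_H3, beside -0.17 in APP_H1 and 0.50 in C1 and C2. rplp2 departed by -1.67 in APP_H3 and -0.57 in APP_H1. rpl3, which lies by the peptidyl transferase center, departed by -0.60 in APP_H3, rps9 by -0.57 and rps2, at the mRNA entry channel of the 40S subunit, by -0.65. In APP_H3 copy 2 of rpl22 and copy 2 of rpl19 lay above the common shift, by 0.77 and 0.58. Copy 2 of rpl5 and copy 2 of rps19, which were not among the 70, had log2 ratios of -0.87 and -4.03 to their median library there, below the common shift of -0.46.

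**Figure D5:**
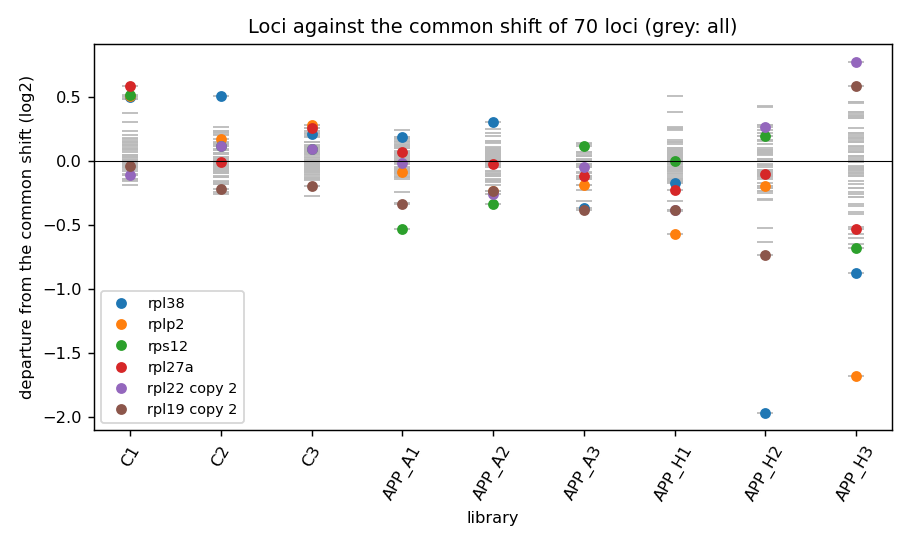
Departure of 70 loci from the common shift of each library, on the log2 scale (grey marks, all loci; coloured points, 6 named loci). rpl38 stands at -1.96 in APP_H2 and rplp2 at -1.67 in APP_H3, while most loci stay within 0.5.

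Each library was divided by its family factor, an alternative chosen after the values were seen, so members were compared relative to each other. This factor was the common shift as a fold, between 0.727 (APP_H3) and 1.83 (APP_H1). It came from these same members, so the division took out their shared spread and put the factor into every other gene. The shares of all genes are thus no fair background for the member counts on this scale. The unadjusted limma p was then under 0.05 between APP_H and C for rpl38 (log2 fold change -1.41, limma adjusted p = 0.565), rplp2 (-1.13, limma adjusted p = 0.617) and rpl27a (-0.57, limma adjusted p = 0.681). Between APP_H and APP_A it was so for rpl38 alone (-1.05, limma adjusted p = 0.539). On this scale 4 members lay above and 7 below all C libraries in APP_A, against 4.46% and 5.11% of all genes. In APP_H 6 lay above and 11 below all C libraries, against 1.99% and 10.2%, and 7 above and 7 below all APP_A libraries, against 2.86% and 10.9%. The 11 below C in APP_H included rpl38, rplp2, rpl27a, rplp1, rpl12 and faua, and the 6 above were rpl21, rpl26, rps15a, rpl29, rps4x and rpl11.

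Within the stalk the 3 members did not keep a fixed proportion. The ratio of the FPKM of rplp2 to that of rplp0, the protein that anchors the stalk, was 5.59, 4.42 and 5.20 in C, 3.87, 3.73 and 3.43 in APP_A, and 2.23, 3.38 and 1.32 in APP_H. All 6 libraries with APP were below the 3 C libraries, a ratio that was chosen after the values were seen and is given with no test. How many other pairs of members separate in this way was not counted. The ratio of rplp2 to rplp1 was 5.915, 4.989 and 5.234 in C and 6.121, 3.699 and 4.532 in APP_A, so these groups overlapped. In APP_H it was 3.239, 4.338 and 1.969, below C. The ratio of rplp1 to rplp0 was 0.944, 0.886 and 0.994 in C, 0.632, 1.01 and 0.758 in APP_A, and 0.687, 0.778 and 0.668 in APP_H, so APP_H lay below C and APP_A overlapped it. rplp0 itself had 1537, 1708 and 1094 FPKM in C, 1204, 1504 and 1432 in APP_A, and 3097, 1266 and 971 in APP_H.

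Other genes of protein synthesis were read in the same fits, and none was DE in any comparison. Of 76 tested ribosome biogenesis factors, which process rRNA and assemble subunits, 69 had a positive log2 fold change between APP_A and C (median 0.38), 12 with an unadjusted limma p under 0.05 and all 12 higher, beside 1.48% of all tested genes. This count rested on single libraries: it was 3, 4, 5, 6, 8 and 20 without APP_A3, C2, C1, C3, APP_A2 and APP_A1 in turn, with 62 to 71 loci positive. The lowest p belonged to nol10, a nucleolar factor, with 1.93, 2.43 and 3.38 FPKM in APP_A and 0.97, 1.1 and 1.18 in C (log2 fold change 0.76, limma adjusted p = 1.0). Between APP_H and APP_A 12 of the 76 were positive (median -0.41), with 9 lower and 2 higher at an unadjusted limma p under 0.05, beside 5.17% lower and 5.71% higher of all tested genes. The 9 became 3, 4, 5, 6, 15 and 24 without APP_A3, APP_A2, APP_H2, APP_H3, APP_A1 and APP_H1 in turn, and in the last of these fits 11.2% of all genes were lower. Without APP_H3 this median was -0.23. With the same summed FPKM in every library 2 were lower and 1 higher, beside 3.57% and 6.29% of all genes. Between APP_H and C the median was 0.02. At an unadjusted limma p under 0.05, 5 were higher and 0 lower, beside 3.18% and 4.4% of all tested genes. The lowest p belonged to nop58, a core protein of box C/D snoRNPs, at 0.88 (limma adjusted p = 0.598). With the same summed FPKM in every library the positive loci numbered 69 between APP_A and C, 59 between APP_H and C and 25 between APP_H and APP_A. The median over all genes in those fits was -0.03, 0.23 and 0.26 in the same order.

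Mitochondrial ribosomal proteins, which serve the separate ribosomes of mitochondria, had a median log2 fold change over 68 loci of 0.13 between APP_A and C, -0.16 between APP_H and C, and -0.25 between APP_H and APP_A. The last comparison had 7 loci lower at an unadjusted limma p under 0.05, beside 5.17% of all tested genes, led by mrps22, a small-subunit protein, at -0.91 (limma adjusted p = 0.284). That count was 14 without APP_H1, where 11.2% of all genes were lower, 4 without C1 or APP_A2, 3 without C3, APP_H2 or APP_H3, and 2 without APP_A3. Over 49 translation initiation factors the medians were 0.07, -0.19 and -0.23 in the same order, with only eif4g1a, a scaffold of cap binding, at an unadjusted p under 0.05 (-1.07 between APP_H and APP_A, limma adjusted p = 0.425). Over 18 loci listed by symbol as elongation factors or other genes known for TOP mRNAs they were -0.01, -0.29 and -0.31. Whether each of these mRNAs begins with a TOP tract was not tested. eef1e1, an auxiliary factor of the tRNA synthetase complex, led this list with 2.69, 2.97 and 1.66 FPKM in APP_H and 5.97, 3.41 and 4.79 in C (log2 fold change -0.73, limma adjusted p = 0.610). With the same summed FPKM in every library the medians of these 3 lists between APP_H and C were 0.14, 0.13 and 0.04. Each was below the median of 0.23 over all genes in that fit. Between APP_H and APP_A the list medians were then -0.02, 0.07 and -0.0038, beside 0.26 over all genes. In that fit 0 mitochondrial loci were lower at an unadjusted limma p under 0.05, beside 3.57% of all genes. Without APP_H3 the medians between APP_H and C were -0.11, -0.0088 and 0.02, and between APP_H and APP_A -0.17, -0.12 and 0.0045. Of the 18 loci of the last list 10 were then positive in each of these comparisons, against 5 and 7 with APP_H3.

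Among 24 regulators of ribosomal protein synthesis, such as mTOR complex members and S6 kinases, the medians were -0.01, 0.07 and 0.09. eef2k, the kinase that inhibits elongation factor eef2, had 42.4, 37.8 and 12.2 FPKM in APP_H and 12.2, 9.25 and 4.22 in C, with a log2 fold change of 1.66 (limma adjusted p = 0.569). It was the only regulator with an unadjusted p under 0.05 in that comparison, and APP_H1 and APP_H2 lay above all C libraries while APP_H3 lay within their range. Without APP_H3 the log2 fold change of eef2k between APP_H and C was 2.2 (limma adjusted p = 0.269). In APP_A eef2k had 10.3, 7.0 and 11.3 FPKM, and between APP_H and APP_A its log2 fold change was 1.44 (limma adjusted p = 0.429). All APP_H libraries lay above all APP_A libraries for it, as for 7.45% of all tested genes, with APP_H3 only just above.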

How the data were processed

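Livers of 9 pools, 3 per diet, were sequenced as paired-end poly(A) libraries. The authors assembled loci and deposited an FPKM value per locus and library, scaled by transcript length and mapped fragments. Their methods name TopHat 2 and Cufflinks, the submitters' processing notes Bowtie 0.12.2, HISAT2 2.0 and StringTie 1.3.0. The paper names the Ensembl reference genome of Oreochromis niloticus without its build. The only build given in the sources used here was a mouse build in those notes. Without counts, the number of reads behind a value is unknown, no count model was used and no counting error can be given. The paper gives the reads of each library, and base quality was lowest in APP_H1. The effect of read quality on the levels was not tested. Cuffdiff, the test of the paper, needs reads and was not repeated.

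The 20575 genes that reached 1 FPKM in 3 or more libraries were tested on log2(FPKM + 1), a pseudocount of 1 that understates changes of low genes, with limma 3.58.1 in R 4.3.3, all 9 libraries, 1 mean per group and an intensity trend, after a test on simulated data. p-values were adjusted by Benjamini-Hochberg within each comparison. Members, lists and tests were chosen with earlier results of these data known. Named members were the 6 most and 6 least abundant, the 5 with the lowest p per direction and comparison, all symbols on 2 loci or with like forms, and rplp0, rplp1, rplp2, rpsa, faua, rps6, rpl5 and rpl11. In each other list the gene with the lowest p was eligible. Loci named for departures, ratios or position were chosen after their values were seen. Libraries with the same number were not paired. Alternatives changed the pseudocount, the filter, the scaling, the groups fitted, the trend, values at 0, a replicate block and each library in turn.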

Additional observations from a re-analysis of the deposited data

How the results depend on the processing

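No ribosomal protein locus was DE under any of the 11 alternative settings, the family scaling added later or the 9 fits that left out 1 library each, and the lowest adjusted limma p of a member was 0.136 (rpl38, APP_H vs. APP_A, without APP_H1). Counts of DE genes over the whole table, 20 for APP_A vs. C, 25 for APP_H vs. C and 28 for APP_H vs. APP_A, moved more. They were 42, 38 and 53 with a pseudocount of 0.01, and 7, 8 and 3 with a replicate block. With only the 2 groups compared they were 35 for APP_A vs. C and 57 for APP_H vs. APP_A. With values at 0 taken as missing they were 12 for APP_A vs. C and 17 for APP_H vs. APP_A. Leaving out 1 library gave 12 to 26, 18 to 55 and 5 to 59, with the lowest and highest of the last from the fits without APP_A2 and without APP_H3. Members with an unadjusted p under 0.05, 0 in each comparison, were 1 for APP_A vs. C with only the 2 groups, 3 for APP_H vs. C and 1 for APP_H vs. APP_A with family scaling, and 0 to 3 and 0 to 1 in these last comparisons with 1 library left out (3 and 1 without APP_H1, 1 without APP_H3 for APP_H vs. APP_A). The cause was not tested. The replicate block changed no call of a member. Libraries of the same number in different groups correlated between -0.07 and 0.13 in their deviations, 1 of 9 pairs over 0.1, and in 4 of 9 did a library correlate best with its own number, so the numbers were not read as pairs. The mean share of summed FPKM of APP_H less that of C lay between -0.19 (without APP_H1) and 1.90 points (without APP_H2), that of APP_H less APP_A between 0.41 and 2.5, and that of APP_A less C between -1.37 and -0.07. Over 31 named loci and 1800 combinations of comparison and setting, 135 had another sign than in the reported fit, and none was called in either.

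With 3 pools per diet, the SD of the common shift within a diet, pooled over the diets, was 0.45 on the log2 scale. The diets differed in this spread. The shift ran between -0.46 and 0.87 in APP_H, between -0.26 and 0.26 in C, and between -0.18 and 0.23 in APP_A. FPKM within a library depend on its other transcripts, so a shift of all members cannot be told apart from a change in the rest of the library. Symbols were taken from the table, and loci with several start groups or with near-identical copies may hold reads of other genes.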
